A study of Homo sapiens with 8 samples.

Results

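AOX1 and 9 aldehyde dehydrogenases (ALDH1A1, ALDH1A3, ALDH1B1, ALDH1L1, ALDH2, ALDH3A1, ALDH3A2, ALDH3B1 and ALDH7A1) were followed through 8 RNA-seq libraries of PC9, a human lung adenocarcinoma cell line. The 10 genes were listed by symbol and all 10 were found among the 63677 Ensembl gene IDs of the count files. The list was chosen by measured values of AOX1, which was lower in PC9-BrM3 than in PC9 parental cells and higher with the hairpin against HSF1 than with the control hairpin. Because both contrasts were used in the choice, AOX1 is described here without a test in either comparison. The same libraries also hold the other 10 human ALDH genes, which are given for comparison.

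The 4 groups had 2 libraries each. In the shHSF1 group, PC9-BrM3 cells carried the lentiviral, doxycycline-inducible Tet-pLKO-shHSF1 plasmid (clone 7480), so HSF1 was targeted by 1 hairpin only. In the shNTC group, the same subline carried the inducible Tet-pLKO-shNTC plasmid with a non-target hairpin. Both transduced groups had been selected with puromycin for 5 days and kept in doxycycline at 500 ng/mL for 48 h. The PC9-BrM3 group was the brain metastatic subline without a hairpin, and the PC9 parental group was the line it is compared with; both were cultured for 48 h and are not described as having received puromycin or doxycycline. HSF1 is the main activator of heat shock genes, and the series addresses the genes that depend on it in metastatic cells and those that differ in the brain metastatic subline. No parental cells carried a hairpin. Whether the 2 libraries of a group were grown separately is not stated, and the p-values given here then reflect only how far these libraries lie apart, which may be technical variation.

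Gene-assigned counts ran from 33550140 to 56715336 per library, and levels are given as CPM, counts scaled to library totals with TMM factors over the 8 libraries. Where a library had a count of 0, the level may still be as high as 0.0529 to 0.0894 CPM (3 counts, counting error only). Per the file headers, all transduced libraries were read on lane 1 and all untransduced libraries on lane 7; either comparison thus stays inside a lane. PC9-BrM3 replicate 2 stood apart, with 17.3% mitochondrial counts against 1.40% to 6.23% in the other 7 libraries, and its pair differed most (chi-square per degree of freedom 301.5, against 10.9 to 25.1 in the other groups). HSF1 itself had 15.6 and 13.5 CPM in shHSF1 libraries, against 178 and 184 CPM in shNTC libraries. It had 54.6 and 52.7 CPM in PC9-BrM3 and 46.9 and 50.0 CPM in PC9 parental cells, so the control hairpin libraries on lane 1 read higher than the untransduced subline on lane 7. EPCAM, KRT7, KRT8, KRT18, KRT19 and EGFR were abundant in every library, while the lung lineage markers NKX2-1 and NAPSA lay under 1 CPM throughout. The surfactant gene SFTPB, also a lineage marker, had 0.0257 and 0.112 CPM in shHSF1, against 0.351 and 1.14 CPM in shNTC libraries (-3.33 ± 0.82, adjusted p = 0.00911, edgeR), and 1.58 and 2.65 CPM in PC9-BrM3, against 11.5 and 15.6 CPM in PC9 parental libraries (-2.69 ± 0.33, adjusted p = 0.0127, edgeR). The summed epithelial list, which holds these 3 and 7 others, ran from 2009 to 2123 CPM per kilobase in shHSF1, 1678 to 1775 in shNTC, 1296 to 1333 in PC9-BrM3 and 1051 to 1131 in PC9 parental libraries. Of 9 tested with the hairpin, 3 rose and 1, SFTPB, fell, where 45.7% of all genes passed. CDH1 rose by 0.41 ± 0.06 (adjusted p = 0.000382), KRT8 by 0.63 ± 0.06 (adjusted p = 1.7e-05) and KRT18 by 0.70 ± 0.06 (adjusted p = 1.23e-05, all edgeR). In the subline SFTPB was the 1 of 9 that passed, against 7.14% of all genes. Of 14 markers of blood, endothelial, stromal and brain cells, 5 to 8 were at 0 in each library and CDH5 alone reached 1 CPM per kilobase. CDH5 had 24.3 and 18.7 CPM in shHSF1, 44.3 and 37.6 CPM in shNTC, 32.5 and 25.2 CPM in PC9-BrM3 and 55.3 and 51.2 CPM in PC9 parental libraries, so the sum of that list was 3.43 to 4.34 CPM per kilobase in shHSF1, 6.92 to 8.18 in shNTC, 4.57 to 5.71 in PC9-BrM3 and 8.94 to 9.66 in PC9 parental libraries. Of the 3 markers of this list that were tested with the hairpin, CDH5 fell (-0.91 ± 0.13, adjusted p = 0.000503), LYZ fell (-2.10 ± 0.37, adjusted p = 0.00122) and the endothelial VWF rose (1.08 ± 0.37, adjusted p = 0.0375, all edgeR). In the subline 1 of the 3 passed, CDH5, which fell (-0.87 ± 0.18, adjusted p = 0.048, edgeR). The part of these marker differences in the results was not tested.

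Aldehydes arise from alcohols, lipids, amino acids and vitamin A, and are reactive towards proteins and DNA. Aldehyde dehydrogenases oxidize them to carboxylic acids with NAD or NADP, each with its own preferred substrates and compartment. Aldehyde oxidase, the product of AOX1, does so with molecular oxygen through a molybdenum cofactor, and is best known in liver for oxidizing drugs with nitrogen-containing rings.

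The promoters of 4 genes are shown because these genes span the patterns found: AOX1, ALDH1B1 (higher with the HSF1 hairpin), and ALDH1A3 and ALDH3A2 (the most abundant members, lower with it). Each is the 250 bases before the annotated start in RefSeq GRCh38.p14, which is not the GRCh37 build of the counts, written 5′ to 3′ along the gene. Of the 2 windows listed for ALDH3A2, the downstream one is shown; the other (chr17:19647886-19648135, 55.6% G and C) holds neither of the motifs marked. Capitals mark the letters GGGCGG (the core of a GC box) or CCAAT on either strand, so that CCGCCC and ATTGG are the same letters read on the other strand.
AOX1 (chr2:200585764-200586013, plus strand): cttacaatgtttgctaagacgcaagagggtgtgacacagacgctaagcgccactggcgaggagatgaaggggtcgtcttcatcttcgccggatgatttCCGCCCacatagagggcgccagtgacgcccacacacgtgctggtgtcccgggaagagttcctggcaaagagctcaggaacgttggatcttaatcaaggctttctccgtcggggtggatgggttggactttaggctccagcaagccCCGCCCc
ALDH1B1 (chr9:38392452-38392701, plus strand): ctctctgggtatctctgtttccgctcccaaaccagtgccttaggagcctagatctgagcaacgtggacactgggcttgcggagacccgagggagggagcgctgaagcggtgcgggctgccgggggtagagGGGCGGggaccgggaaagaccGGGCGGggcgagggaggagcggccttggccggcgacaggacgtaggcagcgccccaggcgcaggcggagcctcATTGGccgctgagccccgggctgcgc
ALDH1A3 (chr15:100879581-100879830, plus strand): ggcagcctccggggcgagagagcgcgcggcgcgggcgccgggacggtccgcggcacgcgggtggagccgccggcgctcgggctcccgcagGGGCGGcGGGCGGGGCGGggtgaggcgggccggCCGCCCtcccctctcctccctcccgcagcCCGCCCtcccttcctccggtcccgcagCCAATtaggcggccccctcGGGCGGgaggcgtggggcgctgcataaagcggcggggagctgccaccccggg
ALDH3A2 (chr17:19648501-19648750, plus strand): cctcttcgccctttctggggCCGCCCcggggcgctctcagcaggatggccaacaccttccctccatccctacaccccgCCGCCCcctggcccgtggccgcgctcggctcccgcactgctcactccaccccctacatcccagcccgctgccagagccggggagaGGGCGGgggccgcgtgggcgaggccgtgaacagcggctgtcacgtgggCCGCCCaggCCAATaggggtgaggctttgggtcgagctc
The AOX1 window holds 57.6% G and C, with GGGCGG letters at -152 to -147 and -7 to -2, counting the last base before the start as -1, and no CCAAT. The ALDH1B1, ALDH1A3 and ALDH3A2 windows shown hold 70.4%, 82.4% and 73.2% G and C and have both kinds of letters. HSF1 binds inverted repeats of GAA, so the letters GAANNTTC and TTCNNGAA were searched on both strands of the 11 windows listed for 8 of the 10 genes (none is listed for ALDH2 or ALDH3A1). Both were found in 0 of the 11 windows, against 5.78% and 6.62% of 35093 human promoter windows of the same length. GGGCGG was found in 7 of the 11, against 42.6% of all windows, and CCAAT in 5, against 32.0%. Among the windows listed for the other ALDH genes, TTCNNGAA was found for ALDH18A1 (-116 to -109) and in a window of ALDH1A2 (-170 to -163). A match or its lack describes these letters in these windows only.

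AOX1 (chr2:201450591-201541787, plus strand, GRCh37) had the widest span across the groups among the members above the count filter. It had 38.3 and 38.1 CPM in shHSF1 libraries, against 13.5 and 12.3 CPM in shNTC libraries. It had 3.30 and 2.41 CPM in PC9-BrM3, against 12.5 and 11.7 CPM in PC9 parental libraries. The groups did not overlap within either lane. On the fitted scale this is a log2 difference of 1.58 ± 0.09 (SE) for shHSF1 over shNTC, or 2.99-fold, and of -2.07 ± 0.24 for PC9-BrM3 over PC9 parental, or 4.19-fold lower. These are the values that put AOX1 on the list, and they are given as a description only. The counts behind them were 1491 and 1360 in shHSF1, 656 and 453 in shNTC, 176 and 80 in PC9-BrM3, and 705 and 613 in PC9 parental libraries, at least 80 in each.

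The order of the AOX1 levels was shHSF1, then shNTC and PC9 parental, whose libraries overlap, then PC9-BrM3. The shNTC cells are PC9-BrM3 cells, yet their mean of 12.9 CPM was 4.53 times the 2.85 CPM of the untransduced subline. Among 16201 genes tested in both comparisons, 20.3% had means at least 2-fold apart and 5.53% at least 4-fold apart between these groups. Lane, transduction, puromycin, doxycycline and the hairpin all differ between them and cannot be told apart, and no test was made across lanes. Per kilobase of exon, AOX1 stayed low beside the abundant dehydrogenases even at its highest, at 6.88 ± 0.0233 CPM per kilobase in shHSF1, 2.33 ± 0.154 in shNTC, 0.514 ± 0.114 in PC9-BrM3 and 2.18 ± 0.0956 in PC9 parental libraries (SD, n = 2 each).

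**Figure D1:**
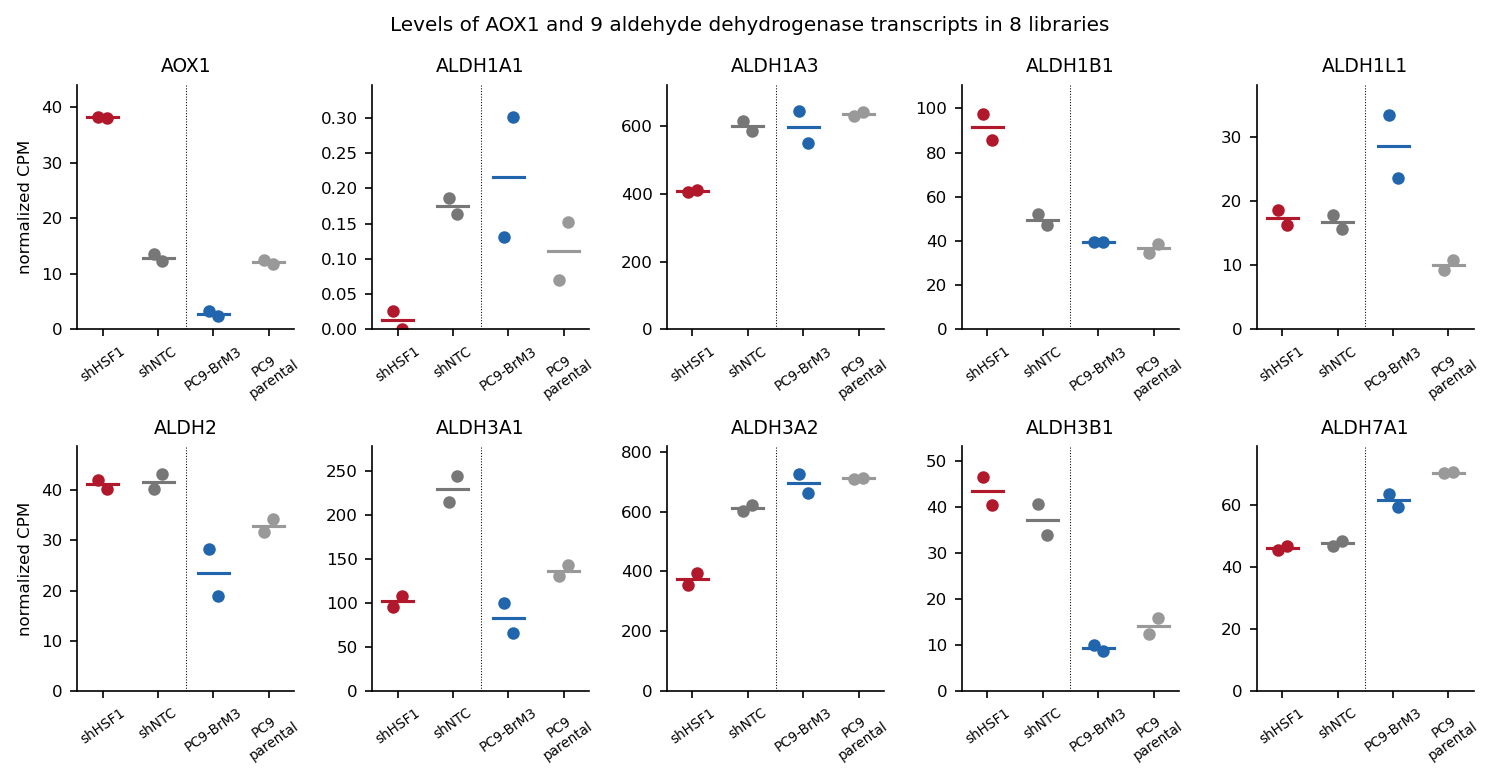
Normalized CPM of the 10 genes, with a point per library and a bar at the mean of the 2 libraries of a group; the vertical axes start at 0 and differ in range, and a dotted line parts the lane 1 groups (left) from the lane 7 groups (right). AOX1 lies at 38.3 and 38.1 CPM in shHSF1 and at 3.30 and 2.41 CPM in PC9-BrM3, while shNTC and PC9 parental libraries lie between 11.7 and 13.5 CPM.

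With the HSF1 hairpin, 1 of the 8 dehydrogenases that passed the count filter rose (ALDH1B1) and 3 fell (ALDH1A3, ALDH3A1 and ALDH3A2), against shNTC, by edgeR's quasi-likelihood test with Benjamini-Hochberg adjustment over all genes at a threshold of 0.05. The ninth, ALDH1A1, was below the filter. In this comparison 45.7% of 16840 tested genes passed (22.2% higher and 23.5% lower), so 4 of 8 is near the background. The median log2 difference of the 8 was -0.01, beside 0.01 over all genes. In PC9-BrM3 against PC9 parental cells, 1 of 8 rose (ALDH1L1) and 0 fell, where 7.14% of 17372 genes passed (3.87% higher and 3.27% lower). At an unadjusted p under 0.05, edgeR gave 1 higher and 2 lower, where 4368 of 17372 genes passed. DESeq2 with adjustment gave 1 higher and 0 lower. The median of the 8 was -0.13, beside 0.01 over all genes. The CPM values of the groups did not overlap for 5 of these 8 genes with the hairpin, where 73.2% of all tested genes did not overlap, and for 6 of 8 in the subline, where 59% did not.

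ALDH1A3 (chr15:101417919-101456831, plus strand) oxidizes retinaldehyde to retinoic acid and was among the most abundant members. It had 404 and 413 CPM in shHSF1 libraries, against 615 and 586 CPM in shNTC libraries. It fell by 0.53 ± 0.06 on the log2 scale (adjusted p = 5.7e-05, edgeR). In PC9-BrM3 it had 645 and 550 CPM, against 631 and 641 CPM in PC9 parental libraries, and these overlap (log2 difference -0.08 ± 0.16, adjusted p = 0.77, edgeR). Its relative ALDH1A1, the best known retinaldehyde dehydrogenase and a common marker of stem-like tumour cells, was close to undetected: 1 and 0 counts in shHSF1, 9 and 6 in shNTC, 7 and 10 in PC9-BrM3, and 4 and 8 in PC9 parental libraries. The summed ALDH1A1 ratio was 0.0761 for shHSF1 over shNTC (95% counting interval 0.00181 to 0.495, from 1 and 15 counts) and 1.78 for PC9-BrM3 over PC9 parental (0.802 to 4.09, from 17 and 12 counts). Both intervals cover counting error only.

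ALDH1B1 and ALDH2 are the mitochondrial members best known for oxidizing acetaldehyde. With the HSF1 hairpin ALDH1B1 passed and ALDH2 did not, and the difference between them was not tested. ALDH1B1 (chr9:38392661-38398658, plus strand) had 97.6 and 85.6 CPM in shHSF1 libraries, against 52.2 and 47.3 CPM in shNTC libraries. It rose by 0.90 ± 0.08 on the log2 scale, or 1.87-fold (adjusted p = 2.2e-05, edgeR). ALDH2 (chr12:112204691-112247782, plus strand) had 42.0 and 40.3 CPM in shHSF1 and 40.3 and 43.2 CPM in shNTC libraries, overlapping values (log2 difference 0.00 ± 0.07, adjusted p = 0.965, edgeR). In the subline, ALDH1B1 had 39.5 and 39.7 CPM in PC9-BrM3 and 34.8 and 38.8 CPM in PC9 parental libraries (0.11 ± 0.15, adjusted p = 0.658, edgeR). ALDH2 had 28.3 and 18.9 CPM in PC9-BrM3 and 31.7 and 34.3 CPM in PC9 parental libraries (-0.47 ± 0.23, adjusted p = 0.265, edgeR). Its PC9-BrM3 libraries were both lower than the parental ones but far apart from each other, and without PC9-BrM3 replicate 1 it passed at -0.80 (adjusted p = 1.71e-05, edgeR). Of the ALDH2 exon bases, 31.4% are shared on the same strand with ENSG00000257767, and reads on those bases are ambiguous between the 2 genes.

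ALDH3A1 (chr17:19641297-19652256, minus strand), a cytosolic enzyme for aromatic and lipid-derived aldehydes that is abundant in cornea, showed the widest difference among the members that were tested with the HSF1 hairpin. It had 95.8 and 108 CPM in shHSF1 libraries, against 214 and 244 CPM in shNTC libraries. It fell by 1.14 ± 0.08 on the log2 scale, or 2.21-fold (adjusted p = 3.42e-06, edgeR). In the subline it had 100 and 65.7 CPM in PC9-BrM3, against 131 and 143 CPM in PC9 parental libraries, with no overlap but a wide PC9-BrM3 pair (log2 difference -0.71 ± 0.23, adjusted p = 0.131, edgeR). Without PC9-BrM3 replicate 1 the ALDH3A1 difference passed at -1.05 (adjusted p = 3.79e-08), and without PC9-BrM3 replicate 2 at -0.45 (adjusted p = 0.00174, both edgeR). It also passed with all 8 libraries in 1 fit (adjusted p = 0.0297) and with no count filter (adjusted p = 0.00307, both edgeR).

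ALDH3A2 (chr17:19551449-19580911, plus strand) encodes the fatty aldehyde dehydrogenase of the endoplasmic reticulum, whose loss causes Sjögren-Larsson syndrome. It had 355 and 393 CPM in shHSF1 libraries, against 601 and 621 CPM in shNTC libraries, and fell by 0.69 ± 0.06 on the log2 scale (adjusted p = 2.23e-05, edgeR). In PC9-BrM3 it had 726 and 662 CPM, against 710 and 713 CPM in PC9 parental libraries, which overlap (-0.03 ± 0.15, adjusted p = 0.92, edgeR). ALDH3B1 (chr11:67776048-67796744, plus strand), which oxidizes medium- and long-chain aldehydes, had 46.6 and 40.5 CPM in shHSF1 and 40.6 and 33.9 CPM in shNTC libraries (0.24 ± 0.10, adjusted p = 0.0837, edgeR). Without shHSF1 replicate 2 the ALDH3B1 difference passed at 0.35 (adjusted p = 0.0336), and without shNTC replicate 1 at 0.39 (adjusted p = 0.0221, both edgeR). On all 4 libraries it passed with upper-quartile factors (0.31, adjusted p = 0.0315) and with no count filter (0.23, adjusted p = 0.0275, both edgeR). ALDH3B1 had 10.0 and 8.63 CPM in PC9-BrM3, against 12.5 and 16.0 CPM in PC9 parental libraries (-0.60 ± 0.21, adjusted p = 0.155, edgeR), and there too leaving out PC9-BrM3 replicate 1 (-0.71, adjusted p = 0.00171, edgeR) or replicate 2 (-0.51, adjusted p = 0.0239, edgeR) let it pass. Its shNTC mean was 4.0 times its PC9-BrM3 mean, a difference across lanes like that of AOX1.

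ALDH1L1 (chr3:125822412-125916837, minus strand) is the cytosolic 10-formyltetrahydrofolate dehydrogenase, which removes one-carbon units from the folate pool and is widely used to mark astrocytes. It had 18.6 and 16.3 CPM in shHSF1 libraries, against 17.8 and 15.6 CPM in shNTC libraries, which overlap (0.08 ± 0.11, adjusted p = 0.593, edgeR). In the subline it had 33.5 and 23.6 CPM in PC9-BrM3, against 9.27 and 10.8 CPM in PC9 parental libraries. It rose by 1.51 ± 0.23 on the log2 scale, or 2.86-fold (adjusted p = 0.022, edgeR). Without PC9 parental replicate 1 the difference was 1.39 and no longer passed (adjusted p = 0.117, edgeR). The astrocyte markers GFAP and AQP4 lay at or under 0.0601 CPM in the 4 untransduced libraries. ALDH7A1 (chr5:125877533-125931110, minus strand), which acts in lysine breakdown and betaine synthesis, passed in neither comparison. It had 45.4 and 46.5 CPM in shHSF1 and 46.7 and 48.3 CPM in shNTC libraries (-0.02 ± 0.07, adjusted p = 0.798, edgeR), and 63.5 and 59.2 CPM in PC9-BrM3 and 70.0 and 70.4 CPM in PC9 parental libraries (-0.19 ± 0.14, adjusted p = 0.451, edgeR).

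**Figure D2:**
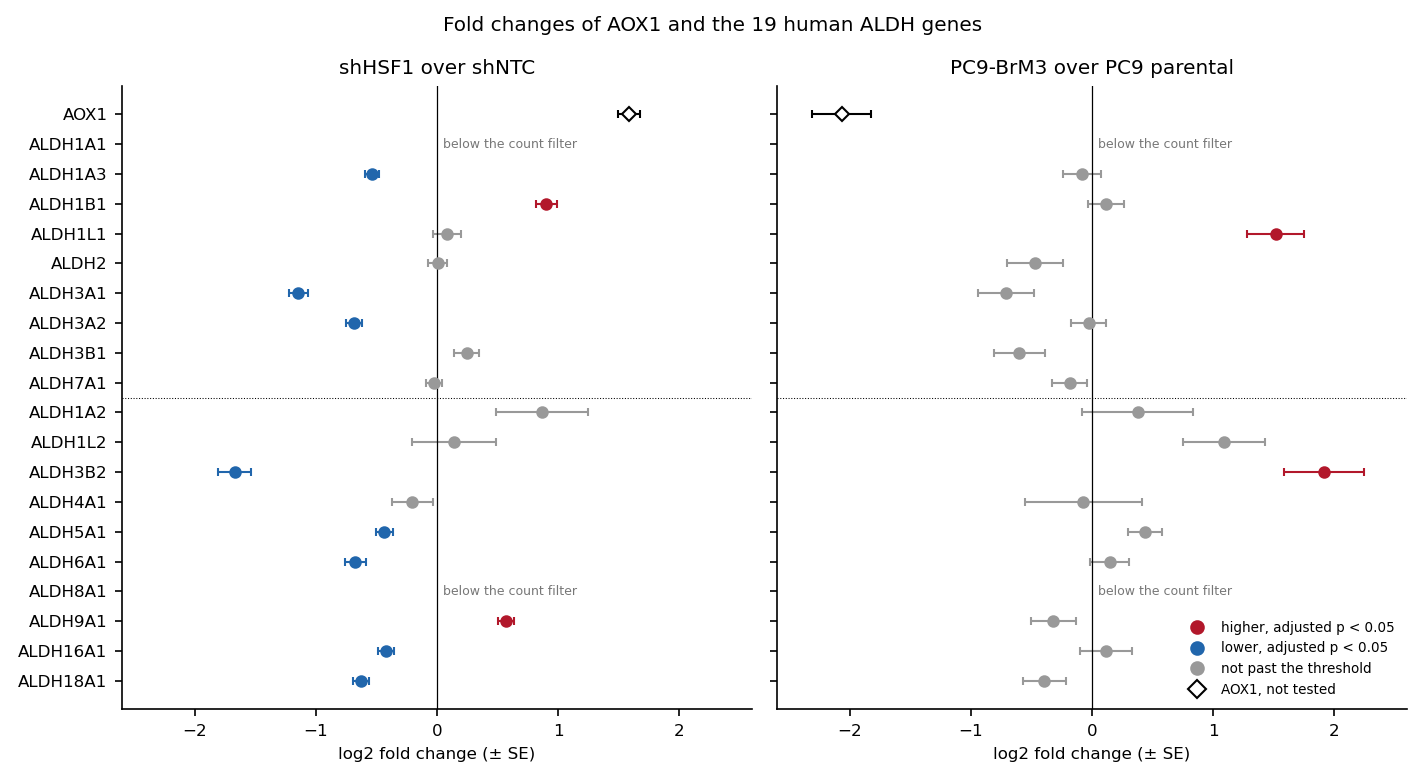
Log2 fold change with its SE (horizontal axis) of AOX1 and the 19 human ALDH genes for shHSF1 over shNTC (left) and PC9-BrM3 over PC9 parental (right), from fits on 2 libraries per group; a dotted line parts the 9 listed dehydrogenases from the other 10. Red and blue points passed an adjusted p of 0.05 (edgeR), AOX1 was not tested, and error bars are wider on the right, where ALDH1L1 and ALDH3B2 passed.

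Among the other 10 ALDH genes, 9 passed the count filter. With the HSF1 hairpin 1 rose and 5 fell, with a median of -0.42 beside 0.01 over all genes, where 45.7% of all genes passed. ALDH9A1, which oxidizes aminobutyraldehydes, rose: 106 and 107 CPM in shHSF1, against 70.2 and 75.8 CPM in shNTC libraries (0.57 ± 0.06, adjusted p = 7.71e-05, edgeR). ALDH3B2, a close relative of ALDH3B1, fell: 3.47 and 4.17 CPM in shHSF1, against 11.8 and 12.9 CPM in shNTC libraries (-1.67 ± 0.14, adjusted p = 1.06e-05, edgeR). The others that fell were ALDH5A1 (succinic semialdehyde, -0.43), ALDH6A1 (methylmalonate semialdehyde, -0.67), ALDH16A1 (-0.42) and ALDH18A1 (proline synthesis, -0.63), in log2 differences. ALDH1A2 (0.86 ± 0.38, adjusted p = 0.0916), ALDH1L2 (0.14 ± 0.35, adjusted p = 0.775) and ALDH4A1 (-0.20 ± 0.17, adjusted p = 0.361, all edgeR) did not pass, and ALDH8A1 lay at or under 0.28 CPM in every library. Of the ALDH4A1 exon bases, 41.1% are shared on the same strand with ENSG00000255275, so reads on those bases are ambiguous, as for ALDH2.

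In the subline, 1 of the 9 rose and 0 fell (edgeR), where 3.87% of all genes rose and 3.27% fell. The median of the 9 was 0.14, beside 0.01 over all genes. At an unadjusted p under 0.05, 3 were higher and 0 lower by edgeR, where 4368 of 17372 genes passed. DESeq2 gave 1 higher and 0 lower. The gene that rose was ALDH3B2, with 23.6 and 43.7 CPM in PC9-BrM3, against 7.82 and 10.1 CPM in PC9 parental libraries (1.91 ± 0.33, adjusted p = 0.0304, edgeR). ALDH3B2 was thus lower with the HSF1 hairpin and higher in the subline, the reverse of AOX1. Over all 16201 genes tested in both comparisons, 2.28% passed in both with opposite signs, in either direction. The part higher with the hairpin and lower in the subline, the direction of AOX1, was 0.963% of all genes. The rest of the 2.28% went in the direction of ALDH3B2. Its call in the subline was lost without PC9 parental replicate 1 (1.72, adjusted p = 0.076, edgeR). ALDH16A1 differed far more across the lanes than within them: 53.9 and 55.8 CPM in shHSF1, 75.2 and 74.1 CPM in shNTC, 6.33 and 5.77 CPM in PC9-BrM3, and 5.27 and 5.97 CPM in PC9 parental libraries. Its shNTC mean was 12.3 times that of the untransduced subline, and the part of the lane in this was not tested.

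Levels were compared between genes per kilobase of exon. ALDH1A3 and ALDH3A2 led in every group, at 70.7 ± 1.06 and 57.9 ± 4.24 CPM per kilobase in shHSF1, 104 ± 3.66 and 94.6 ± 2.17 in shNTC, 104 ± 11.6 and 107 ± 7.05 in PC9-BrM3, and 110 ± 1.29 and 110 ± 0.287 in PC9 parental libraries (SD, n = 2 each). Between them the order could not be told from the spread in the untransduced groups. They held 43.1% and 44.9% of the summed level of the 19 ALDH transcripts in shHSF1, 51.2% and 50.0% in shNTC, 58.7% and 58.6% in PC9-BrM3, and 58.1% and 56.5% in PC9 parental libraries. ALDH1B1 held 11% and 9.47% of the sum in shHSF1, against 4.37% and 3.90% in shNTC libraries. The sum itself was 292 ± 3.68 CPM per kilobase in shHSF1 and 392 ± 3.44 in shNTC, and 359 ± 31.3 in PC9-BrM3 and 385 ± 10.2 in PC9 parental libraries (SD, n = 2 each). The shHSF1 and shNTC sums were apart by more than their spread, while the PC9-BrM3 pair was too wide to part from the parental pair. In these bulk libraries, fewer cells with a transcript and less of it per cell cannot be told apart.

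**Figure D3:**
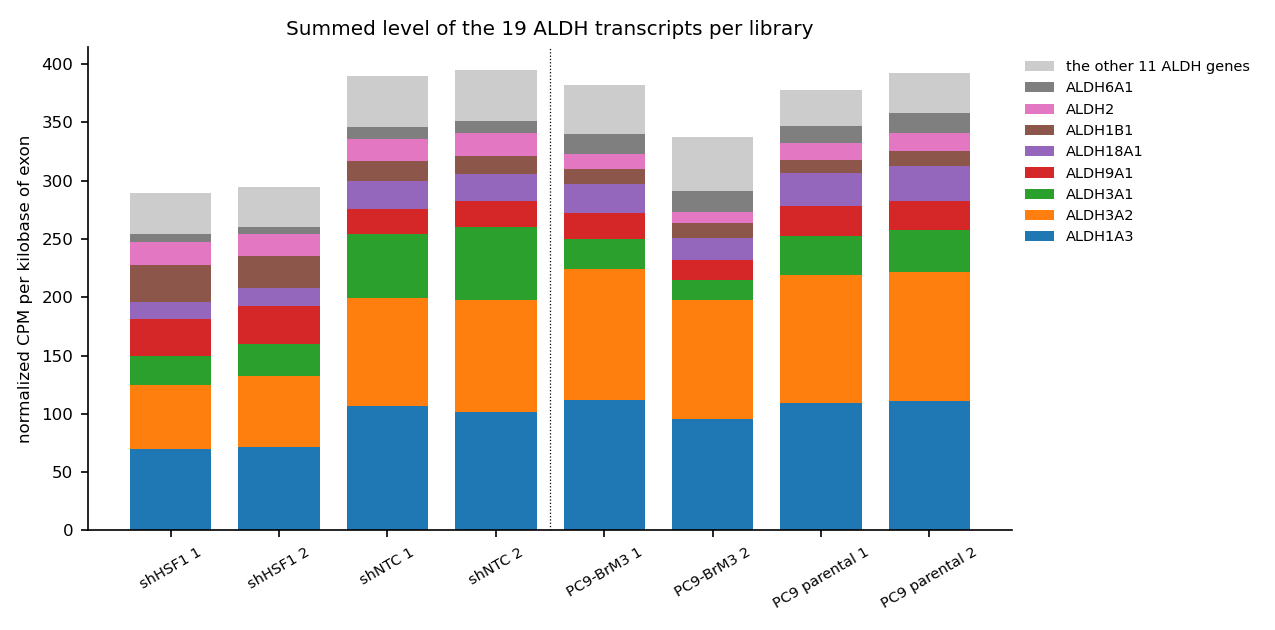
Summed level of the 19 ALDH transcripts in each library, in normalized CPM per kilobase of exon, stacked by gene; the 8 most abundant are coloured and the other 11 are in light grey. The shHSF1 bars are shorter than the shNTC bars, with less ALDH1A3, ALDH3A2 and ALDH3A1 and more ALDH1B1.

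The genes around these enzymes were taken from 6 lists. The molybdenum list holds the other molybdenum enzymes and the makers of the cofactor that AOX1 needs. Of 9 tested, 0 rose and 6 fell with the HSF1 hairpin (edgeR), where 45.7% of all tested genes passed and 23.5% fell. The list median was -0.41. At an unadjusted p under 0.05, 0 were higher and 6 lower by edgeR, where 8831 of 16840 genes passed. DESeq2 gave 0 and 5. MTARC1, a mitochondrial amidoxime reductase, had 4.37 and 6.33 CPM in shHSF1, against 21.7 and 21.8 CPM in shNTC libraries (-2.00 ± 0.15, adjusted p = 6.52e-06, edgeR). MOCS2, which builds the cofactor, fell by 1.10 ± 0.09 on the log2 scale and XDH, the xanthine dehydrogenase most closely related to AOX1, by 0.85 ± 0.08. So AOX1 was higher while these 3 fell. In the subline 2 of 9 fell and 0 rose (0 also at an unadjusted p and by DESeq2), where 7.14% of all genes passed. XDH had 28.8 and 20.5 CPM in PC9-BrM3, against 79.5 and 69.0 CPM in PC9 parental libraries (-1.58 ± 0.22, adjusted p = 0.0164, edgeR). MOCOS, which sulfurates the cofactor for AOX1 and XDH, fell by 0.92 ± 0.15, a call lost without PC9 parental replicate 1 (-0.97) or replicate 2 (-0.89). With the hairpin, where AOX1 was higher, MOCOS was lower too (-0.41 ± 0.07, adjusted p = 0.00143, edgeR). Fewer genes of this list passed when a PC9 parental library was left out, and more when a PC9-BrM3 library was, as over all genes.

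Retinoic acid is the product of ALDH1A1, ALDH1A2 and ALDH1A3. Of 19 tested genes of its pathway among 23 listed, 4 rose and 13 fell with the HSF1 hairpin, with a median of -0.71, where 22.2% of all genes rose and 23.5% fell. DESeq2 gave 2 higher and 10 lower of 21 tested, and all 8 libraries in 1 fit gave 3 and 9 of 19. Over all genes these gave 5945 and 3873 calls, against 7701. The cellular retinoic acid binding protein CRABP2 had 32.5 and 34.5 CPM in shHSF1, against 72.6 and 73.6 CPM in shNTC libraries (-1.10 ± 0.07, adjusted p = 1.89e-06, edgeR). The receptor RARG fell by 0.71 ± 0.07, and DHRS3, which turns retinaldehyde back into retinol, by 0.72 ± 0.07. Among those that rose was the retinaldehyde reductase RDH11 (0.63 ± 0.08). LRAT, which stores retinol as an ester, rose by 0.70 ± 0.17, a call lost by DESeq2 (adjusted p = 0.0687) and without shHSF1 replicate 1 (0.58). In the subline 2 rose and 4 fell, with a median of -0.43, where 7.14% of all genes passed. RDH10, which makes the retinaldehyde that ALDH1A3 uses, had 58.8 and 58.1 CPM in PC9-BrM3, against 220 and 239 CPM in PC9 parental libraries (-1.96 ± 0.14, adjusted p = 0.00405, edgeR). LRAT had 0.432 and 0.391 CPM in PC9-BrM3, against 3.33 and 3.23 CPM in PC9 parental libraries (-2.97 ± 0.29, adjusted p = 0.007, edgeR). PLAAT4, known as a retinoid-responsive gene, rose by 2.80 ± 0.43 (adjusted p = 0.0215, edgeR). The receptor RARB rose by 1.75 ± 0.22 and the retinoic acid hydroxylase CYP26B1 fell by 1.38 ± 0.21, and both calls were lost without PC9 parental replicate 1 (adjusted p = 0.13 and 0.0886) or replicate 2 (0.0898 and 0.126, edgeR). In this list too, fewer genes passed when a PC9 parental library was left out, and more when a PC9-BrM3 library was, as over all genes.

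The reductases turn aldehydes back into alcohols. Of 12 tested among 19 listed, 1 rose and 6 fell with the HSF1 hairpin, with a median of -0.18, where 45.7% of all genes passed. Fewer passed without shNTC replicate 2, in this list as over all genes. AKR1B10, which reduces retinaldehyde and lipid aldehydes, had 288 and 315 CPM in shHSF1, against 608 and 631 CPM in shNTC libraries (-1.02 ± 0.06, adjusted p = 1.49e-06, edgeR). AKR1C2 (-0.48 ± 0.07) and AKR1C3 (-0.52 ± 0.08) also passed, but they are close paralogs of each other and of AKR1C1, so how reads were split between them is uncertain. The riser was DCXR (0.39 ± 0.13), whose call was lost by DESeq2 (adjusted p = 0.101), and also without shHSF1 replicate 2 (0.27) or shNTC replicate 2 (0.30). With all 8 libraries in 1 fit the calls of DCXR (adjusted p = 0.238), AKR1C2 (adjusted p = 0.152) and AKR1C3 (adjusted p = 0.154, all edgeR) were lost. In the subline 0 of 12 passed, against 7.14% of all genes (edgeR). At an unadjusted p under 0.05, 0 were higher and 3 lower by edgeR, where 4368 of 17372 genes passed. DESeq2 gave 0 and 1. The 1 was AKR1C3 (-1.36, adjusted p = 0.000473, DESeq2), which stood at -1.34 ± 0.30 in the fit reported here (adjusted p = 0.0572, edgeR). AKR1C3 also passed with all 8 libraries in 1 fit (adjusted p = 0.00692) and with no count filter (adjusted p = 2.64e-05, both edgeR). More reductases passed when a PC9-BrM3 library was left out, as over all genes. The classical alcohol dehydrogenases ADH1A, ADH4, ADH6 and ADH7 had 0 counts in every library.

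Folate one-carbon genes share a cofactor with ALDH1L1. Of 15 tested, 3 rose and 5 fell with the HSF1 hairpin, with a median of -0.08, so that 8 of 15 passed where 45.7% of all genes did. MTHFD1L rose by 0.43 ± 0.09, while SHMT1 fell by 0.50 ± 0.07 and GART by 0.33 ± 0.06, all on the log2 scale. MTHFD2 rose by 0.29 ± 0.09, a call lost without shHSF1 replicate 1 (0.19) or shNTC replicate 2 (0.18). With all 8 libraries in 1 fit the calls of MTHFD1L (adjusted p = 0.107) and MTHFD2 (adjusted p = 0.278, both edgeR) were lost. In the subline, where ALDH1L1 rose, 1 rose and 2 fell, with a median of -0.28, where 7.14% of all genes passed. More folate genes passed when a PC9-BrM3 library was left out, as over all genes. GLDC, which cleaves glycine to feed the pool, had 4.79 and 4.42 CPM in PC9-BrM3, against 0.336 and 0.363 CPM in PC9 parental libraries (3.72 ± 0.29, adjusted p = 0.00427, edgeR). The mitochondrial enzyme MTHFD2 fell by 1.37 ± 0.19 (adjusted p = 0.0178, edgeR). SHMT2, its mitochondrial partner, fell by 0.94 ± 0.14, a call lost without PC9 parental replicate 1 (adjusted p = 0.184) or replicate 2 (adjusted p = 0.233, both edgeR).

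Lysine and choline breakdown supply the aldehydes of ALDH7A1. With the HSF1 hairpin 2 of 6 tested rose and 2 fell, with a median of -0.08, where 45.7% of all genes passed. AASS, the first enzyme of lysine breakdown, had 5.26 and 5.07 CPM in shHSF1, against 2.48 and 2.61 CPM in shNTC libraries (1.05 ± 0.16, adjusted p = 0.000474, edgeR). AADAT rose by 0.75 ± 0.18, a call lost without shNTC replicate 1 (0.60) and with all 8 libraries in 1 fit (adjusted p = 0.0545, edgeR). DHTKD1 fell by 0.59 ± 0.08 and the sarcosine dehydrogenase SARDH by 1.34 ± 0.25. In the subline 1 of 7 rose and 1 fell, with a median of -0.02, where 7.14% of all genes passed. AASS had 0.225 and 0.391 CPM in PC9-BrM3, against 2.16 and 3.0 CPM in PC9 parental libraries (-3.09 ± 0.41, adjusted p = 0.0153, edgeR). SARDH rose by 1.96 ± 0.32, a call lost without PC9 parental replicate 1 (adjusted p = 0.254) or replicate 2 (adjusted p = 0.177, both edgeR), which left 1 call on this list. AASS was thus higher with the HSF1 hairpin and lower in the subline, as the AOX1 levels were. On the 6 lists LRAT and MTHFD2 also passed in both this way, as did 0.963% of 16201 genes. SARDH and PLAAT4 passed in both the other way, lower with the hairpin and higher in the subline. PLAAT4 was at -0.82 ± 0.25 with the hairpin (adjusted p = 0.0239) and 2.80 ± 0.43 in the subline (adjusted p = 0.0215, both edgeR). By DESeq2 its hairpin call was lost (adjusted p = 0.259).

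Fatty aldehydes for ALDH3A2 come from sphingolipids, ether lipids and branched fatty acids. With the HSF1 hairpin 1 of 7 tested rose and 4 fell, with a median of -0.35, where 45.7% of all genes passed and 23.5% fell. SGPL1, the lyase that releases hexadecenal from sphingosine phosphate, had 109 and 99.6 CPM in shHSF1, against 216 and 200 CPM in shNTC libraries (-0.97 ± 0.07, adjusted p = 3.87e-06, edgeR). Of the kinases that make its substrate, SPHK1 rose by 1.29 ± 0.15 and SPHK2 fell by 0.90 ± 0.10, and FAR2, a fatty acyl reductase, fell by 0.62 ± 0.09. ALDH3A2 and SGPL1, consecutive steps in this route, were both lower with the hairpin. In the subline 0 of 7 passed, against 7.14% of all genes (edgeR). At an unadjusted p under 0.05, 0 were higher and 2 lower by edgeR, where 4368 of 17372 genes passed. DESeq2 gave 0 and 0. More genes of this list passed when a PC9-BrM3 library was left out, as over all genes.

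**Figure D4:**
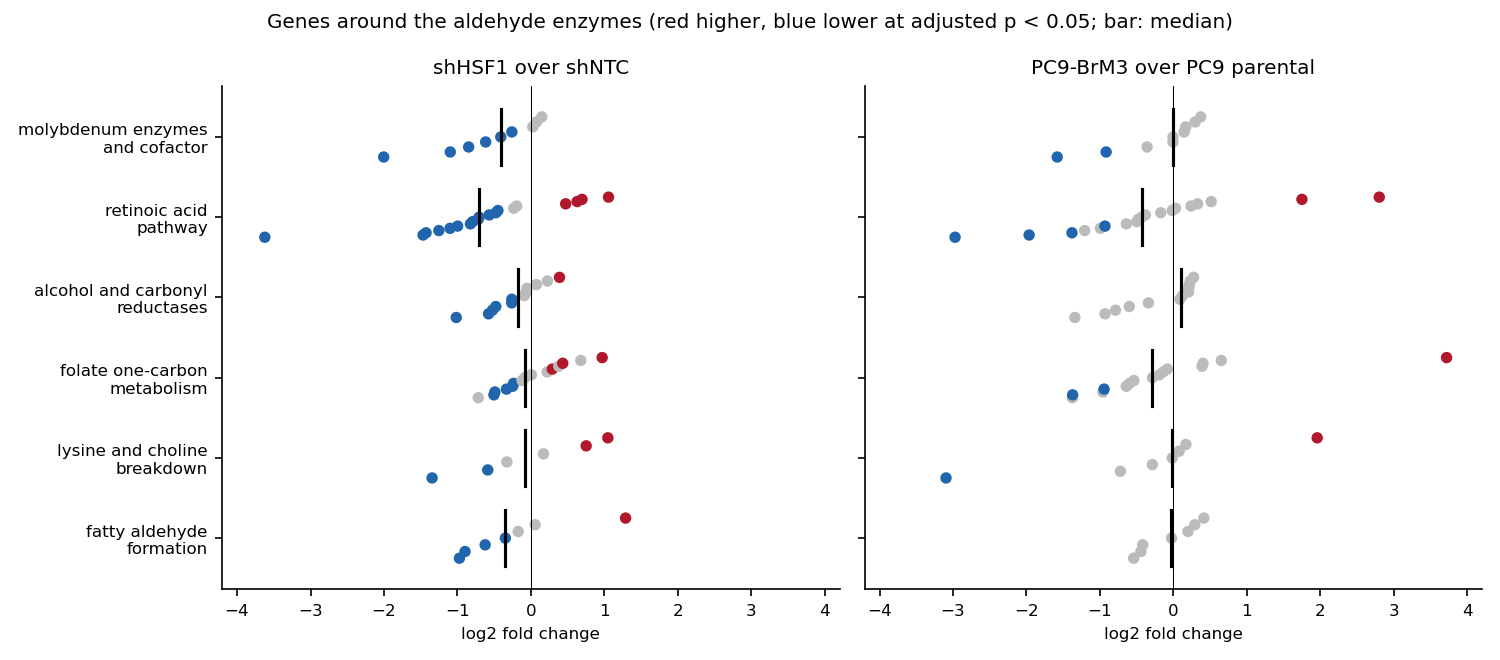
Log2 fold change (horizontal axis) of each tested gene of the 6 lists, for shHSF1 over shNTC (left) and PC9-BrM3 over PC9 parental (right); points are genes, red higher and blue lower at an adjusted p of 0.05 (edgeR), and black bars are list medians. On the left the molybdenum points that passed, 6 of 9, all lie below 0, as do the 13 of 19 retinoic acid genes that fell; on the right most points are grey.

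Next to AOX1 on chromosome 2, the files annotate 6 genes within 100 kb. KCTD18 passed in neither comparison in the fit reported here (0.22 ± 0.09, adjusted p = 0.0672 for shHSF1 over shNTC, and -0.03 ± 0.20, adjusted p = 0.927 for PC9-BrM3 over PC9 parental, edgeR), although with upper-quartile factors the first passed (0.29, adjusted p = 0.0226, edgeR). SGO2, a cohesin protector in cell division that ends just before the AOX1 start, had 47.6 and 51.0 CPM in shHSF1, against 121 and 96.4 CPM in shNTC libraries, and fell by 1.12 ± 0.10 on the log2 scale (adjusted p = 3.26e-05, edgeR). In the subline SGO2 did not pass (0.32 ± 0.21, adjusted p = 0.392, edgeR), except without PC9-BrM3 replicate 1 (0.57, adjusted p = 3.7e-05, edgeR). The AOX pseudogenes AOX3P and AOX2P lay at or under 0.0514 and 0.565 CPM in every library. LINC01792, on the minus strand, had 1.31 and 1.40 CPM in shHSF1 and 0.846 and 0.925 CPM in shNTC libraries (0.64 ± 0.25, adjusted p = 0.0658, edgeR). With the hairpin it passed under a filter of 1 CPM (0.64, adjusted p = 0.0498) and with upper-quartile factors (0.71, adjusted p = 0.0462, both edgeR). It fell in the subline, to 0.338 and 0.271 CPM in PC9-BrM3, against 1.15 and 1.45 CPM in PC9 parental libraries (-2.06 ± 0.36, adjusted p = 0.0308, edgeR), a call lost without PC9 parental replicate 1 (adjusted p = 0.124) or replicate 2 (adjusted p = 0.249, both edgeR). RNU1-133P was at or under 0.056 CPM.

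The profile of AOX1 over the 8 libraries was compared with those of the 16201 genes tested in both comparisons, as the root mean square difference of log2 CPM after centring each lane (pseudocount 0.1 CPM). The 5 closest were IL1R2, a decoy receptor for interleukin-1 (0.0893), COL4A6, a basement membrane collagen chain (0.161), GPSM1 (0.182), the non-coding LINC02893 (0.189) and ALOXE3, an epidermal lipoxygenase (0.192). They were picked for this likeness, so the following values are a description. IL1R2 had 6.98 and 7.0 CPM in shHSF1, 2.46 and 2.56 CPM in shNTC, 1.84 and 1.47 CPM in PC9-BrM3, and 6.51 and 6.72 CPM in PC9 parental libraries. COL4A6 had 42.3 and 33.5 CPM in shHSF1, 13.3 and 14.1 CPM in shNTC, 1.48 and 0.992 CPM in PC9-BrM3, and 4.60 and 6.05 CPM in PC9 parental libraries. Centring each lane hides level differences between lanes: COL4A6 was higher in shNTC than in PC9 parental libraries, while the IL1R2 levels ran the other way.

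**Figure D5:**
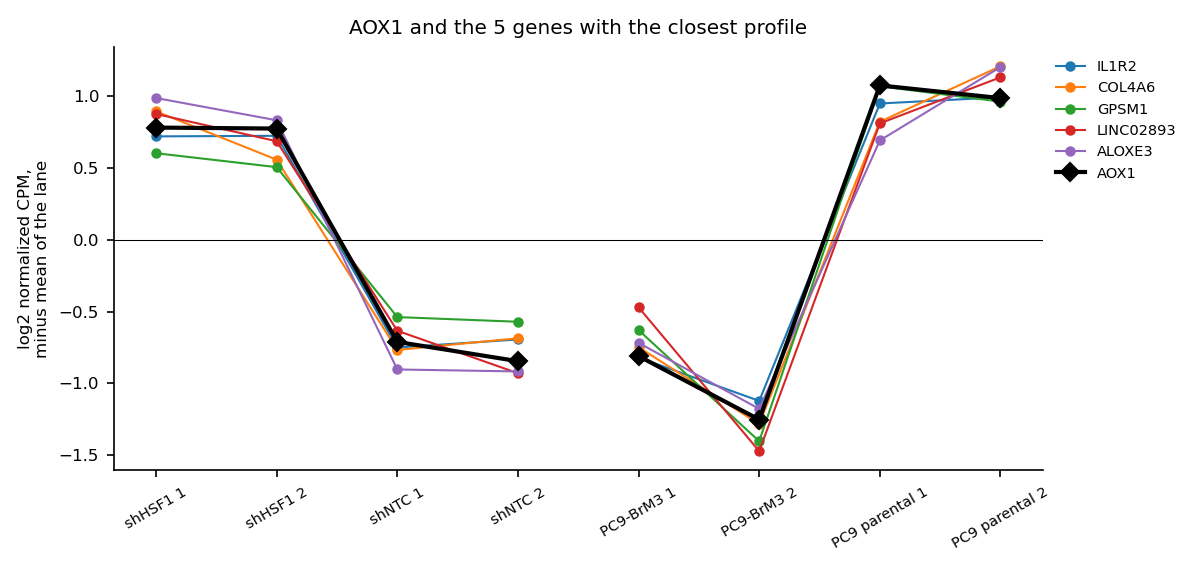
Log2 normalized CPM minus the mean of its lane (vertical axis) for AOX1 (black diamonds) and the 5 genes with the closest profile, in each of the 8 libraries; lines join the libraries of a lane only to guide the eye. All 6 lie above 0 in the shHSF1 and PC9 parental libraries and below 0 in the shNTC and PC9-BrM3 libraries, which the choice of genes fixes.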

How the data were processed

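RNA-seq gene counts of 8 libraries, 2 in each of 4 groups, were analysed. The authors deposited unnormalized counts of reads. Per the file headers, featureCounts 1.6.1 assigned reverse-stranded reads to the exons of each gene of an Ensembl GRCh37 annotation. Trim Galore, HISAT2 and DESeq2 are also named, per the submitters' processing notes. Counting by strand keeps overlapping genes of opposite strands apart, while near-identical paralogs can lose or swap reads. Symbols were matched for 52181 of 63677 IDs, and IDs without a symbol held 0.656% to 0.823% of the counts of a library.

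Each comparison used its own 4 libraries, within 1 lane, and was fitted with edgeR 4.0.16 in R 4.3.3. Low genes were dropped by filterByExpr, with a smallest count of 10 and a smallest total of 15. Libraries were scaled by TMM, and the robust quasi-likelihood test was adjusted over all tested genes after Benjamini-Hochberg, with a threshold of 0.05. CPM values use TMM factors over all 8 libraries and, to compare genes, were divided by the kilobases of exon in the files. The code was tested on simulated data. DESeq2 1.42.0, other scalings and filters, a joint fit, a replicate block and leaving out each library were tried.

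The members and the gene lists were chosen with earlier results of these data known. The genes named are the members, the other ALDH genes, up to 3 genes per list, direction and comparison with the smallest p among those that passed, HSF1, the genes within 100 kb of AOX1 and the 5 most similar to it. A few genes that this rule names are not reported here. ADH genes, GFAP, AQP4, CDH5, LYZ, VWF and the epithelial and lineage markers are named outside that rule. Promoter sequences are from RefSeq (GRCh38.p14). Total counts of 33550140 to 56715336 per library set the counting precision.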

Additional observations from a re-analysis of the deposited data

How the results depend on the processing

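Of the fitted differences of AOX1, the one for shHSF1 over shNTC ran from 1.51 to 1.66 and the one for PC9-BrM3 over PC9 parental from -2.32 to -1.88 over 11 alternatives each. In the subline, ALDH4A1 (-1.01 to 0.46) and ALDH1A2 (-0.21 to 0.82) changed sign between alternatives, and both passed without PC9-BrM3 replicate 1. With the HSF1 hairpin, the 10 ALDH calls held in every alternative, and 4 to 6 listed dehydrogenases passed (6 with no count filter). Genes that passed in all numbered 7701, and 3873 with all 8 libraries in 1 fit, where 2 reductases and 4 folate genes passed; with upper-quartile factors 4592 were higher and 3387 lower.

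The subline calls depended more on the settings. Against 1240 genes, 1 listed dehydrogenase and 1 other ALDH gene, all 8 libraries in 1 fit gave 3813 genes, 3 and 2, with 2 reductases, 7 folate and 2 fatty aldehyde genes. No count filter gave 3159 genes, 2 and 2, with 3 reductases and 7 folate genes. DESeq2 and the replicate block each gave 1 reductase. Leaving out 1 library at a time gave 402 to 9228 genes, 0 to 4 listed dehydrogenases and 0 to 7 other ALDH genes, with the high counts when a PC9-BrM3 library was left out, and the lone library was then taken to vary like the other group. The same ranges were 1 to 5 for molybdenum, 3 to 14 for retinoic acid, 0 to 7 for reductases, 2 to 10 for folate, 1 to 3 for lysine and choline and 0 to 3 for fatty aldehyde genes; with the HSF1 hairpin, 4 to 7 reductases. The lists' alternatives were added after seeing the data.

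Same-numbered replicates did not deviate together (r = 0.0117 and -0.00185 across genes), so the numbers do not pair libraries. With the replicate block 8015 genes, 5 listed and 6 other ALDH genes passed for the hairpin, and 1328, 1 and 1 for the subline; with the hairpin the block let ALDH3B1 (adjusted p = 0.0144) and KCTD18 (adjusted p = 0.0496, edgeR) pass. For transcripts such as ALDH1A1, with 10 counts or fewer in each library, depth is the limit.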

Other observations

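Of the 19 ALDH transcripts, several differed more between the shNTC libraries (lane 1) and the untransduced PC9-BrM3 libraries (lane 7) than in either comparison within a lane, although both are PC9-BrM3 cells. ALDH16A1 was 12.3 times and ALDH3B1 4.0 times as high in shNTC, and ALDH3A1 2.76 times. ALDH1A2 was 4.15 times and ALDH1L2 3.22 times as high in PC9-BrM3. ALDH1A3, at 601 CPM in shNTC and 597 CPM in PC9-BrM3, hardly differed. Of 16201 genes, 20.3% had group means at least 2-fold apart between these groups.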
